A study of Rattus norvegicus with 30 samples.

Results

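The kidneys of 5 rats taken 34 h after a low dose of mercury chloride (HgCl2) were compared with the kidneys of 5 rats taken 34 h after saline. The 10 libraries were chosen by their labels from the 30 of the series, in which 6 groups of 5 cover a vehicle, a low and a high dose at 10 and 34 h. All animals were Sprague-Dawley rats, an outbred stock. The low dose was 0.25 mg/kg HgCl2, the high dose 0.5 mg/kg, and the vehicle was saline at 1 ml/kg. The sources used here do not give the age or sex of the rats or the route of dosing. Each frozen kidney was powdered whole before its RNA was taken, so a library averages over all regions and cell types of 1 organ. In such bulk RNA, fewer cells of a type and less RNA per cell cannot be told apart. The study set the doses to cause injury of different degrees, and the comparison asks what the lower of them did to kidney transcripts after 34 h.

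Inorganic mercury binds the thiol groups of proteins and of small molecules such as glutathione, and the kidney takes up more of it than other organs. Its known target there is the proximal tubule, above all the straight segment in the outer medulla, whose cells take mercury up as thiol conjugates and lose their brush border or die at toxic doses. Surviving tubule cells then divide and re-line the tubule, and injured tubules are known to raise stress genes such as heme oxygenase, the metallothioneins and the injury marker Kim-1. None of these genes could be looked up here. The deposited files list transcripts by Ensembl transcript ID, and no table used here pairs those IDs with gene names. A reference table of 47357 rat genes of another assembly held the IDs in 0 cells. The labelled tissue was therefore not checked against marker genes, and transcripts are described by ID, length, level and abundance class.

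Depth ranged more widely in the low dose, and the make-up of the libraries did not pass a test of difference. Estimated counts on transcripts were 20.2 to 36.7 M in the low dose and 24.7 to 32.8 M in the vehicle, overlapping. Of the 40071 transcripts in each file, 21112 passed the filter on low counts over the 30 libraries and were tested. Transcripts with at least 1 estimated count numbered 24403 ± 491 (SD, n = 5) in the low dose and 24279 ± 262 in the vehicle. The 1000 most abundant transcripts held 52.0 ± 0.967% and 52.6 ± 1.08% of the counts. In exact two-sided permutation tests over the 10 libraries of 7 such measures, which also covered the top 10 and top 100 transcripts, counts outside transcripts and how far a library lay from the others of its group, the adjusted p was 0.81 for each. The low dose libraries are 1 unbroken run of library numbers, 46 to 50, with vehicle replicates 1 to 3 before it and replicates 4 and 5 after it. The dose and a batch that holds just those 5 libraries cannot be told apart. Each group of 10 h is also 1 unbroken run: 31 to 35 for the low dose, 36 to 40 for the vehicle and 56 to 60 for the high dose. Where these groups are compared, dose or time cannot be told apart from such a batch either. The labels carry no replicate numbers, so replicates are numbered in accession order and a number shared by both groups pairs nothing.

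Single transcripts that passed the adjusted test were few, and those under an unadjusted limit were many. With edgeR's quasi-likelihood test and an adjusted p under 0.05, 6 transcripts rose and 1 fell (7 of 21112, 0.0332%; 0.0284% higher and 0.00474% lower). At an unadjusted p under 0.05 there were 1457 higher (6.9%) and 1560 lower (7.39%), 3017 in all or 14.3%. At the same limit edgeR with the size factors of DESeq2 gave 1553 higher and 1393 lower, so the larger side depended on the scaling. The low dose at 10 h, measured in 10 other libraries, had 1904 transcripts at that limit (9.02%), and the high dose at 10 h had 2968 (14.1%). The number of calls depended on the tool. DESeq2 called 443 of the 10053 transcripts to which it gave an adjusted p (4.41%; 243 higher, 2.42%, and 200 lower, 1.99%), and its filters gave none to the other 11059, among them 5 of the 7 edgeR calls. The log2 fold changes of the DESeq2 calls were small, with a median size of 0.26, and 401 of the 443 were under 0.5 in size. The 2 groups did not overlap in 221 of the 443.

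Among the transcripts that rose, ENSRNOT00000051422 (1135 bp, on average 8.49 TPM, the deposited level per length, over the 30 libraries) had the largest change of those with a mean of at least 5 CPM, that is, estimated counts scaled to the library total by the TMM method. Its level was 9.07, 7.41, 8.70, 6.33 and 12 CPM in low dose replicates 1 to 5. In vehicle replicates 1 to 5 it was 2.49, 2.92, 3.35, 3.44 and 2.07 CPM. The lowest low dose library thus stood above the highest vehicle library, and low dose replicate 5 was the highest of the 10. This is a log2 fold change of 1.61 with an SE of 0.19 (edgeR adjusted p = 0.0311). With 1 library left out at a time the call held in 2 of 10 fits, in which replicate 4 of either group was left out, and the adjusted p ranged from 0.0309 to 0.0988.

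The transcript that fell was ENSRNOT00000051259 (931 bp, 17.5 TPM on average over the 30 libraries). It stood at 8.07, 8.75, 9.01, 10.2 and 7.31 CPM in low dose replicates 1 to 5. The vehicle replicates 1 to 5 had 13.1, 15.0, 13.9, 14.5 and 13.7 CPM. The groups did not overlap, and the gap lay between low dose replicate 4 and vehicle replicate 1. This is a log2 fold change of -0.70 with an SE of 0.09 (edgeR adjusted p = 0.0446), and the call held in 1 of the 10 fits that left out a library, that without low dose replicate 4 (adjusted p 0.0325 to 0.146 over the 10). Once each library's trend of level with transcript length was removed, an alternative added after the data had been seen, the log2 fold change was -0.61 and the call ended.

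The other 5 transcripts that rose are given without their IDs. One of them had 0 counts in all 5 vehicle libraries and 2.49 to 3.70 CPM in the low dose, at least 24.5-fold higher against a floor of 3 counts per library. It was also listed at 0 in 2 of 5 vehicle libraries at 10 h, where the highest value was 5.24 CPM, and in 1 of 5 libraries of each of the low dose at 10 h and the high dose at 10 and 34 h. A second went from 0 to 0.548 CPM in the vehicle to 2.97 to 12.1 CPM in the low dose (log2 4.61). The next pair stood at 1.52 to 2.36 and 2.46 to 3.68 CPM in the vehicle, and at 4.32 to 7.84 and 6.52 to 12.3 CPM in the low dose (log2 1.70 and 1.40). The last had the smallest change, with 54.7 ± 1.17 CPM in the low dose and 42.6 ± 2.24 CPM (SD, n = 5) in the vehicle (log2 0.36, edgeR adjusted p = 0.033). None of the 7 had whole estimated counts, so each shared reads with other targets and its level is uncertain for that reason.

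For most of the 7, the vehicle at 34 h was the group that stood apart from the saline kidneys of 10 h. In 5 of the 7 the 5 vehicle libraries at 34 h did not overlap the 5 vehicle libraries at 10 h, while the low dose libraries at 34 h overlapped them in 7 of 7. Over all tested transcripts, 340 (1.61%) had a vehicle at 34 h apart from the vehicle at 10 h, and 239 (1.13%) a low dose at 34 h apart from it. The 7 were chosen on these same vehicle values of 34 h, so their counts are a description. Time and a batch that holds just the vehicle libraries of 10 h cannot be told apart. ENSRNOT00000051422 was at 5.98 to 10.9 CPM in the vehicle at 10 h, overlapping the low dose at 34 h and above the vehicle at 34 h. ENSRNOT00000051259 was at 8.11 to 12 CPM in the vehicle at 10 h, again overlapping the low dose at 34 h and below the vehicle of that time. Within the low dose at 10 h both varied widely, from 2.69 to 13 and from 5.87 to 15.4 CPM. Whether the effect changed from 10 to 34 h was tested as the difference of both effects: edgeR called 0 transcripts (0%; 1344 had an unadjusted p under 0.05), limma voom called 0 and DESeq2 25.

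**Figure D1:**
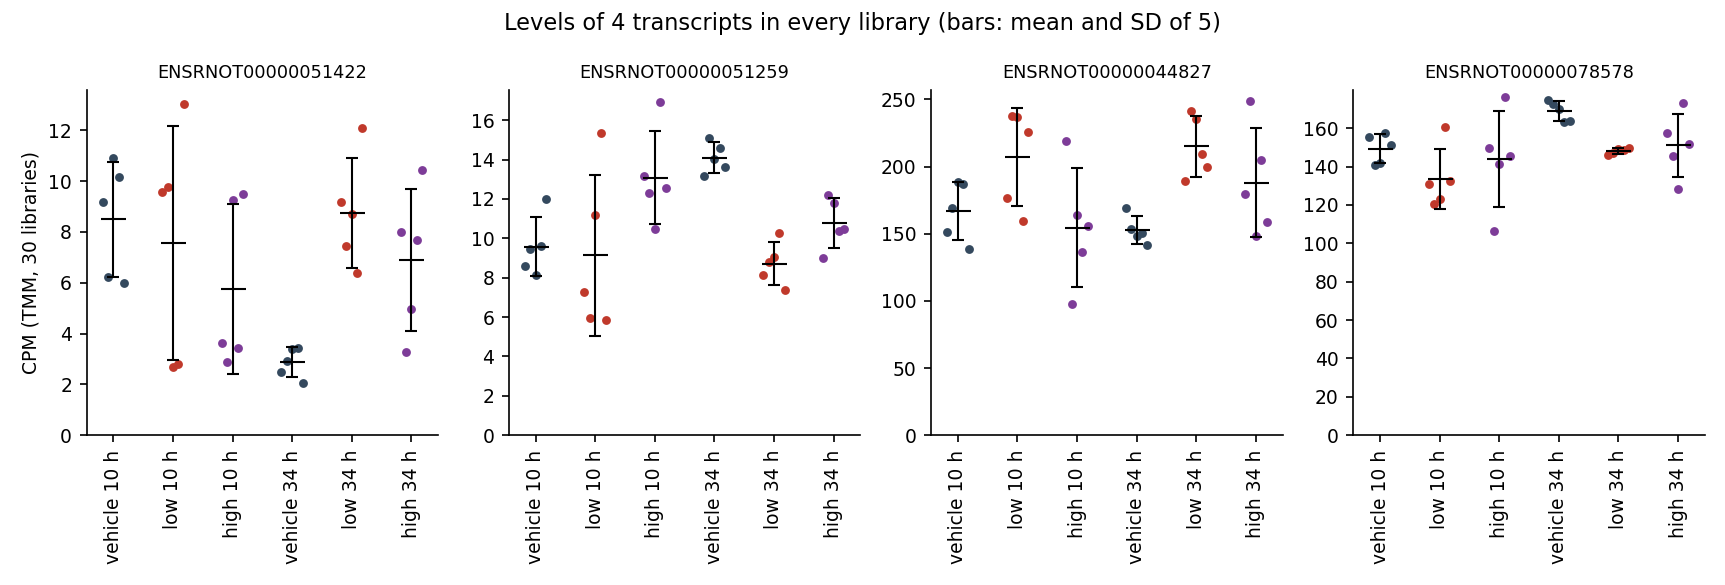
Level of 4 transcripts in each of the 30 libraries, in CPM after TMM scaling over all 30 (vertical axis, from 0), for the 6 groups of dose and time; each point is 1 library and the bars are the mean and SD of 5. For ENSRNOT00000051422 the 5 vehicle libraries at 34 h lie below the 5 vehicle libraries at 10 h, and for ENSRNOT00000051259 they lie above them.

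Transcripts whose groups did not overlap were far more frequent than calls, under a looser rule that carries no test and no adjustment. In 566 transcripts (2.68%) each low dose library lay on 1 side of each vehicle library. By rank alone, a share of 0.00794 of all splits of 10 libraries into 5 and 5 separates fully. The number of such transcripts was not tested against that share. In 263 of them (1.25%) the low dose was higher and in 303 (1.44%) lower. In the comparisons at 10 h, which use none of these libraries, 259 transcripts (1.23%) were apart after the low dose and 781 (3.7%) after the high dose. The split into higher and lower depended on the scaling. It was 300 and 268 with the size factors of DESeq2, 358 and 181 with CPM scaled to the library total alone, and 360 and 87 on the deposited TPM values. The median shift of all tested transcripts was -0.0035 log2 units with TMM and 0.0232 on the TPM scale, a difference comparable in size to the shifts of whole abundance classes. The counts that follow use TMM.

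Most of these shifts were under 0.5 log2 units in size. The 263 higher transcripts had a median log2 fold change of 0.33, and 175 of them were under 0.5 and 31 at least 1. The 303 lower transcripts had a median of -0.21, with 269 under 0.5 in size and 11 at least 1. Over all tested transcripts, for comparison, 89.1% were under 0.5 in size. Levels per length also differed, with a median of 6.99 TPM for the higher and 20.9 TPM for the lower transcripts against 6.28 TPM for all tested. The higher transcripts were longer, with a median of 2709 bp, than the lower ones with 1879 bp, and the median of all tested was 2095 bp. Whole counts, without fractions from reads shared with other targets, were found in 44.1% of the higher and 52.1% of the lower transcripts, against 39.1% of all tested. Together the higher transcripts held 1.13% and the lower ones 1.5% of the counts.

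**Figure D2:**
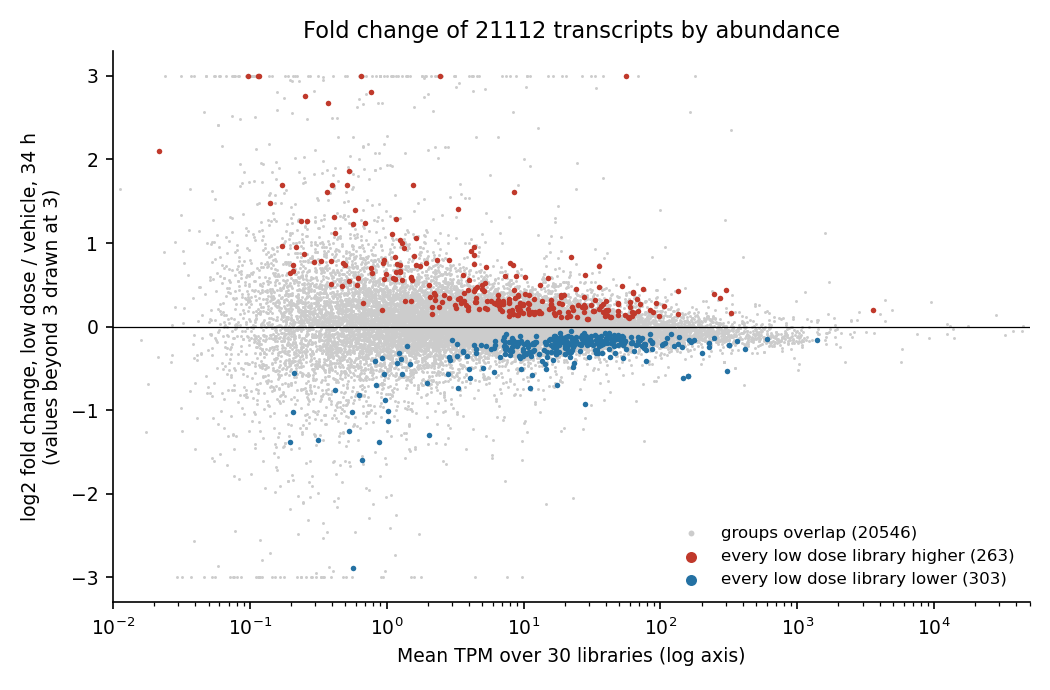
Log2 fold change, low dose over vehicle at 34 h (vertical axis, values beyond 3 drawn at 3), of 21112 transcripts against their mean TPM over the 30 libraries (log axis); red and blue points are the 263 and 303 transcripts with every low dose library above or below every vehicle library, and grey points are the rest. The red and blue points narrow towards 0 with rising abundance, and blue points outnumber red ones between 20 and 100 TPM.

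How small a shift could separate the groups depended on abundance, as did the spread within groups. Under 1 TPM, where a transcript had a median of 16.6 estimated counts per library, the median SD within the low dose group was 0.306 log2 units. From 20 to 100 TPM, with a median of 1476 counts, it was 0.0967. The median size of the log2 fold change of the non-overlapping transcripts declined with it, from 0.95 under 1 TPM and 0.45 from 1 to 5 TPM to 0.25 from 5 to 20 TPM and 0.19 from 20 to 100 TPM. It was 0.22 from 100 to 1000 TPM. Among these non-overlapping transcripts, the median change under 1 TPM was 93.5% for the higher and -48.1% for the lower ones. From 20 to 100 TPM it was 15.4% and -12.1%. Such medians cover only transcripts whose groups separated, which takes a larger change where the spread is wider. Over all tested transcripts the median size of the log2 fold change was 0.324 under 1 TPM and 0.0951 from 20 to 100 TPM. In the 5 classes below 1000 TPM the median SD was larger in the vehicle than in the low dose. From 5 to 20 TPM the SD was larger in the low dose for 38.8% of the 6231 transcripts, with medians of 0.126 and 0.148.

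The direction of the shifts changed from rare to abundant transcripts, classed by their mean TPM over the 30 libraries. Of the 4126 transcripts under 1 TPM, 45 were higher in every low dose library and 16 lower (1.48% in all). From 1 to 5 TPM there were 67 higher and 26 lower of 5443 (1.71%). From 5 to 20 TPM, 85 were higher and 101 lower of 6231 (2.99%). The larger side of this class depended on the scaling, since it was 103 higher and 86 lower with the DESeq2 size factors, 132 and 63 with CPM scaled to the library total alone and 126 and 31 on the deposited TPM values. The class of 20 to 100 TPM had the largest share of non-overlapping transcripts of the 6 classes, 58 higher and 134 lower of 4132 (4.65%). From 100 to 1000 TPM there were 7 higher and 25 lower of 1093 (2.93%), and of the 87 transcripts of at least 1000 TPM 1 was higher and 1 lower (2.3%). The excess of lower transcripts also depended on the scaling. In the class of 20 to 100 TPM it was 70 higher and 119 lower with the DESeq2 size factors, but 98 and 60 with CPM scaled to the library total alone and 104 and 22 on the deposited TPM values, so the direction flipped with both of these.

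The unadjusted tests and the fold changes of whole classes followed the same order. At an unadjusted p under 0.05, 171 transcripts were higher and 77 lower under 1 TPM, and 379 and 160 from 1 to 5 TPM. From 20 to 100 TPM it was 283 higher and 599 lower, and from 100 to 1000 TPM 39 and 240. These counts by class use TMM alone. Over all classes, limma on log2(TPM + 1) gave 1751 higher and 764 lower at this limit. The share of transcripts with a log2 fold change below 0 went from 43.7% under 1 TPM through 50.2% from 5 to 20 TPM to 74.8% from 100 to 1000 TPM, and was 70.1% from 1000 TPM on. DESeq2's calls had this order too up to 1000 TPM. They were 121 higher and 59 lower of 4480 from 5 to 20 TPM (4.02%), 94 and 102 of 3782 from 20 to 100 TPM (5.18%) and 13 and 37 of 1046 from 100 to 1000 TPM (4.78%), near the 4.41% of all with an adjusted p. From 1000 TPM on they were 2 and 2 of 87.

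**Figure D3:**
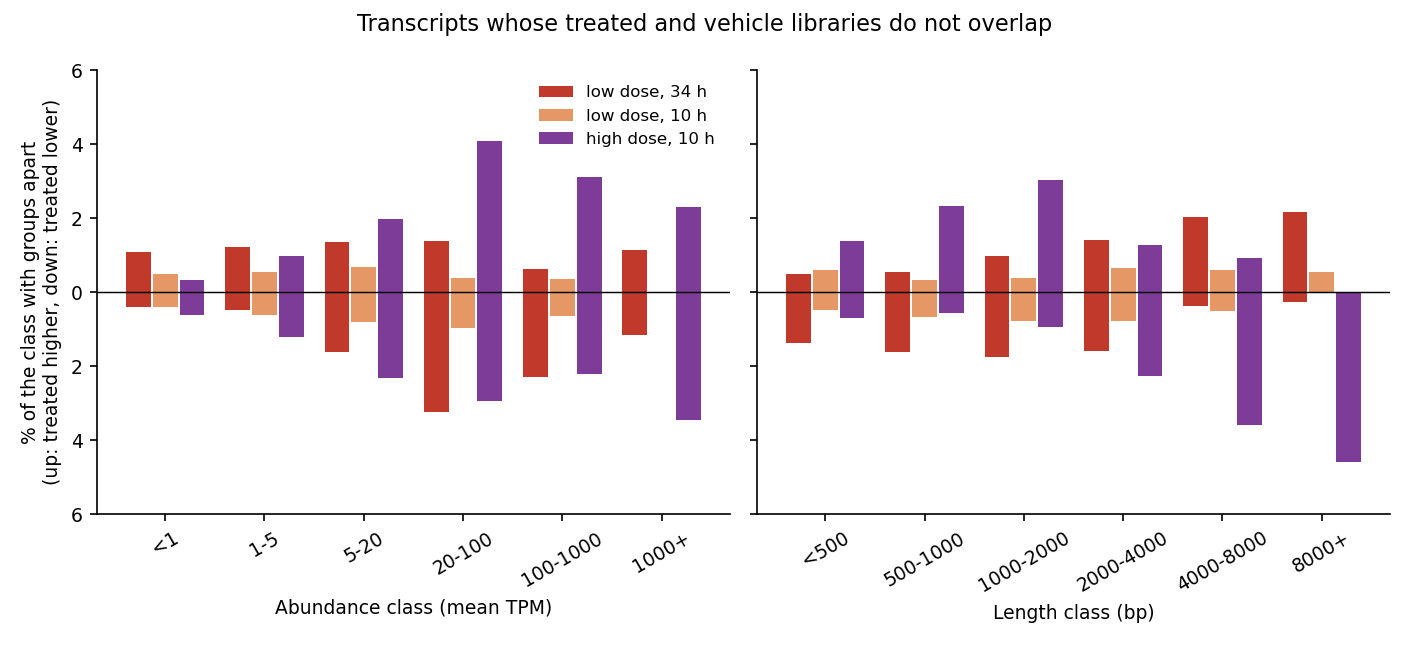
Share of each abundance class (left, mean TPM) and length class (right, bp) whose 5 treated libraries all lie above (bars up) or below (bars down) the 5 vehicle libraries of the same time, in percent, for the low dose at 34 h and both doses at 10 h. For the low dose at 34 h the lower share is largest, 3.24%, from 20 to 100 TPM, and the higher share is largest, 2.16%, from 8000 bp on.

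Summed up as 1 value per library, the class shifts did not pass the test. The median over a class of each transcript's log2 CPM minus its mean over the 10 libraries was 0.0399 higher in the low dose than in the vehicle under 1 TPM, and 0.0344 higher from 1 to 5 TPM. It differed by 0.0007 from 5 to 20 TPM. The difference was -0.0387 from 20 to 100 TPM, -0.076 from 100 to 1000 TPM and -0.0798 from 1000 TPM on. Exact two-sided permutation p values, of which 0.00794 is the smallest that 5 against 5 libraries can give, were 0.0238, 0.0873, 0.905, 0.0476, 0.0635 and 0.0794 in that order. After adjustment over the 6 classes they were 0.105, except 0.905 from 5 to 20 TPM. The shift from 20 to 100 TPM kept its direction with the DESeq2 size factors (-0.0309) and with CPM scaled to the library total alone (-0.0281), where the counts of non-overlapping transcripts flipped. It was not computed on the deposited TPM values. With classes set by mean CPM the shifts at the high end were smaller, -0.0246 from 100 to 1000 and -0.0142 from 1000 on.

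The libraries of the 2 groups overlapped in all 6 classes. From 100 to 1000 TPM low dose replicates 1, 2 and 4 stood at -0.0889, -0.0711 and -0.0413, and replicates 3 and 5 at 0.0266 and 0.0033. Vehicle replicates 2, 3 and 4 stood at 0.055, 0.0854 and 0.0992, and replicates 1 and 5 at -0.0013 and -0.0299. Low dose replicates 3 and 5 thus sat between the groups or on the vehicle side, and vehicle replicate 5 on the low dose side. Without vehicle replicate 5 the adjusted exact permutation p was 0.0476 in 4 of the 6 classes, with shifts of 0.0485 under 1 TPM, 0.0468 from 1 to 5 TPM, -0.0478 from 20 to 100 TPM and -0.0915 from 1000 TPM on. No class passed in any other fit that left out 1 library. There the lowest adjusted p of the same test was 0.0714, without low dose replicate 3.

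**Figure D4:**
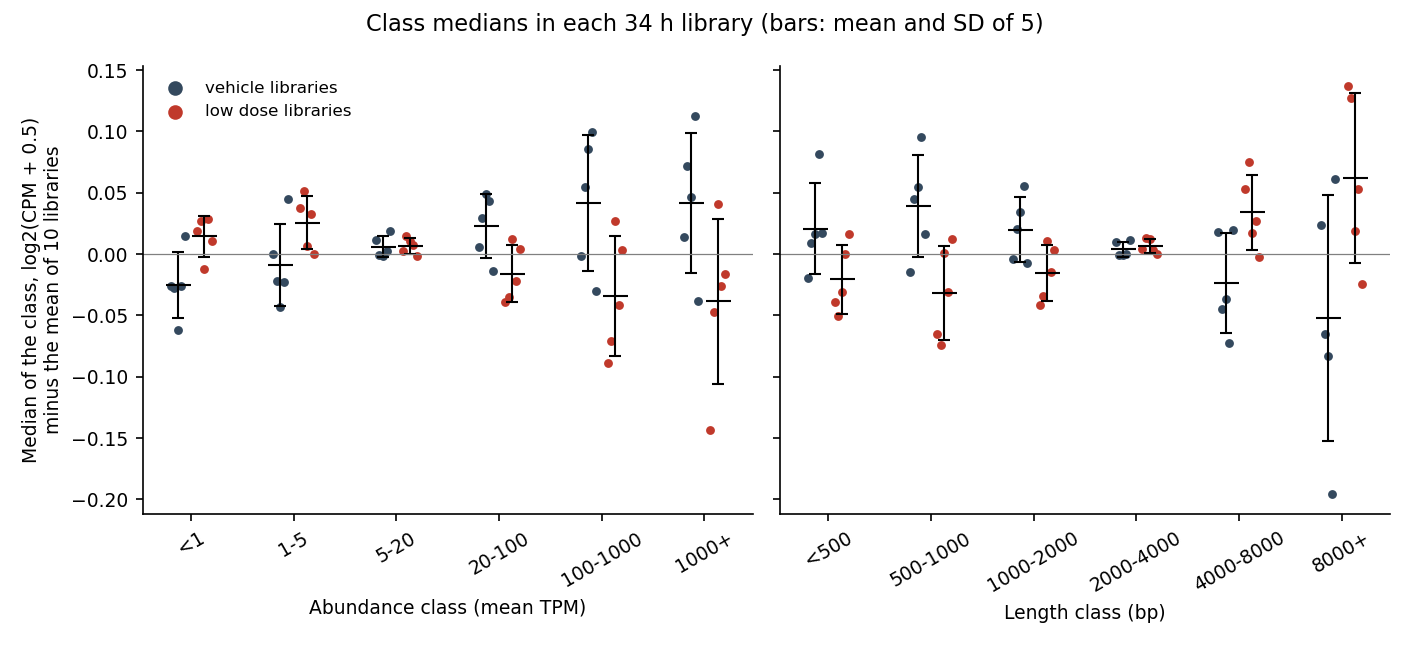
Median over each abundance class (left, mean TPM) and length class (right, bp) of log2(CPM + 0.5) minus the transcript's mean over the 10 libraries; each point is 1 library at 34 h and the bars are the mean and SD of 5. Vehicle means go from -0.0252 under 1 TPM to 0.0417 from 100 to 1000 TPM, low dose means from 0.0146 to -0.0343, and single libraries of both groups overlap in every class.

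Transcript length moved with the same libraries. The median of the 371 transcripts of at least 8000 bp was 0.114 log2 units higher in the low dose than in the vehicle, and that of the 3135 transcripts of 4000 to 8000 bp was 0.0572 higher. The difference was -0.0706 from 500 to 1000 bp, -0.0351 from 1000 to 2000 bp and -0.0413 under 500 bp. The class of 2000 to 4000 bp, the most numerous of the 6, differed by 0.0028. The exact permutation p was 0.0317 from 500 to 1000 bp and 0.0794 from 8000 bp on, and the adjusted p over these 6 classes, which were added after the data had been seen, was 0.0952 in all but the class of 2000 to 4000 bp (0.468). Among non-overlapping transcripts 64 were higher and 12 lower from 4000 to 8000 bp (2.42% of the class), while 13 were higher and 38 lower from 500 to 1000 bp (2.17%). Both shares were below the 2.68% of all tested, so these classes differed in direction and held no excess of such transcripts.

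Length and abundance were partly the same axis, since abundant transcripts were shorter, with a median of 793 bp from 1000 TPM on and 2395 bp under 1 TPM. Within the single class of 20 to 100 TPM the median log2 fold change was -0.0609 under 500 bp and -0.1004 from 500 to 1000 bp. It then went over -0.0226 for 2000 to 4000 bp to 0.0531 for 4000 to 8000 bp. Within the single class of 1000 to 2000 bp the median went from 0.06 under 1 TPM to -0.0732 from 20 to 100 TPM. There it was -0.0651 from 100 to 1000 TPM and 0.0041 for the 25 transcripts from 1000 TPM on. With each library's length trend removed, the shift from 20 to 100 TPM was -0.0115, that from 100 to 1000 TPM -0.0162 and that from 1000 TPM on 0.0045, while the shifts under 1 TPM and from 1 to 5 TPM were 0.0414 and 0.0409. With the abundance trend removed, the shift from 8000 bp on was 0.103 and that from 500 to 1000 bp -0.0487. The number of non-overlapping transcripts was 556 without the length trend, 425 of them among the 566. It was 580 with both trends removed, of which 407 were among the 566.

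The slope of a library's shift with log2 length was 0.0184 ± 0.0175 per doubling of length (SD, n = 5) in the low dose and -0.0112 ± 0.0225 in the vehicle (exact permutation p = 0.0556, adjusted 0.119 over 5 such measures added later). The mean fragment length, taken from the difference of length and effective length, was 233 ± 6.91 bp and 226 ± 10.8 bp (exact permutation p = 0.302). Both groups overlapped in either measure. RNA quality was not given per library in the sources used here, and its part in the gradients was not tested.

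Neither the length gradient nor the abundance gradient had 1 direction across the series. In the low dose at 10 h against its own vehicle, the difference was 0.0899 for transcripts of at least 8000 bp and -0.0297 for those of 500 to 1000 bp. In the high dose at 10 h, against the same vehicle libraries, the order was the opposite, with -0.153 from 8000 bp on and 0.0847 from 500 to 1000 bp. By abundance, the low dose at 10 h differed by 0.021 under 1 TPM, -0.0671 from 100 to 1000 TPM and -0.079 from 1000 TPM on. These differences were -0.0178, 0.0555 and 0.1055 in the high dose at 10 h. The order from rare to abundant was thus not particular to the low dose at 34 h. A few libraries stand far from their groups, among them vehicle replicate 2, low dose replicate 4 and high dose replicate 2 of 10 h. As medians of transcript shifts, the values from 8000 bp on were 0.0807 (low dose) and -0.157 (high dose) with all libraries, and 0.153 and -0.188 without those 3.

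Abundant transcripts whose groups did not overlap had small changes. Of 1712 transcripts with a mean of at least 100 CPM, 60 had groups that did not overlap (3.5%, against 2.68% of all tested), 29 of them higher and 31 lower. By CPM, which is not per length, the excess of lower transcripts seen from 100 to 1000 TPM (7 higher and 25 lower) was thus not present. The log2 fold changes of the 60 were 0.075 to 0.72 in size with a median of 0.17. Their lowest edgeR adjusted p was 0.105, so none passed the test. ENSRNOT00000044827 (4177 bp, 52.2 TPM over the 30 libraries) had the lowest unadjusted p of those higher. Its level was 187, 241, 235, 207 and 198 CPM in low dose replicates 1 to 5. In vehicle replicates 1 to 5 it was 168, 153, 147, 150 and 142 CPM. The low dose values were spread widely and still began above the highest vehicle library, replicate 1. Its log2 fold change of 0.49 did not pass the test (SE 0.08; edgeR adjusted p = 0.105), while DESeq2 called it (log2 0.50). Its estimated counts were not whole, so it shared reads with other targets and its level is uncertain for that reason.

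ENSRNOT00000078578 (1798 bp, 108 TPM over the 30 libraries) was the counterpart among abundant transcripts lower in the low dose. The low dose libraries were close together, at 144, 146, 149, 148 and 149 CPM in replicates 1 to 5. The vehicle libraries were at 174, 172, 169, 163 and 165 CPM. The gap between the groups was wider than the full span of either. Its log2 fold change of -0.19 did not pass the test (SE 0.04; edgeR adjusted p = 0.194), while DESeq2 called it at the same value. This transcript shared reads with other targets too. In the low dose at 10 h it ranged from 120 to 160 CPM and in its vehicle from 141 to 158 CPM, with overlap. For the high dose at 34 h, which is compared with the same vehicle libraries, the range was 128 to 173 CPM and the log2 difference -0.16 (edgeR adjusted p = 0.821).

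In the libraries of 10 h, the 566 transcripts leaned the same way in the low dose and the other way in the high dose. Both doses are compared with the same vehicle libraries of 10 h, so the 2 comparisons are not independent. These transcripts were chosen on the 34 h libraries, so their values there are given only as a description, while the 10 h libraries took no part in the choice. In the low dose at 10 h, 76% of the 263 higher transcripts were above their vehicle, with a median log2 fold change of 0.12, and 22.1% of the 303 lower ones, with a median of -0.07. Over all tested transcripts 49.6% were above. Part of the lean was common to all tested transcripts: 61.6% of those with a higher mean in the low dose at 34 h were above, and 38.3% of those with a lower mean. Set against transcripts of the same abundance and length class, the medians were 0.12 and -0.05. In the high dose at 10 h, 35.4% of the higher and 68% of the lower transcripts were above their vehicle, with medians of -0.07 and 0.06, against 52.1% of all tested. Of all tested transcripts with a higher or lower mean in the low dose at 34 h, 40.4% and 63.1% were above. Set against transcripts of the same class, the medians were -0.0698 and 0.0202, with 36.9% and 57.1% above, so the lean of the lower set was smaller.

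The lean at 10 h was not shared by each library. Relative to the mean of the 30 libraries, the median of the higher set minus that of the lower set was 0.164, 0.416, 0.32 and 0.3 in low dose replicates 1, 2, 3 and 5 of 10 h, and -0.264 in replicate 4. In the vehicle of 10 h it ranged from -0.18 to 0.152, so replicates 1, 2, 3 and 5 of the low dose lay above all 5 vehicle libraries and replicate 4 below them. That replicate 4 also had a slope with log2 length of -0.0275, against 0.0106 to 0.0461 in replicates 1, 2, 3 and 5. A link of this difference of medians with the slope was not tested. In the libraries that chose the sets the difference of medians was 0.0882 to 0.294 in the low dose and -0.364 to -0.178 in the vehicle. In the high dose at 34 h it ranged from -0.164 to 0.217. As medians of transcript shifts, the low dose at 10 h had 0.116 for the higher and -0.0725 for the lower set with all 10 libraries, 0.133 and -0.087 without vehicle replicate 2, and 0.186 and -0.115 without low dose replicate 4.

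**Figure D5:**
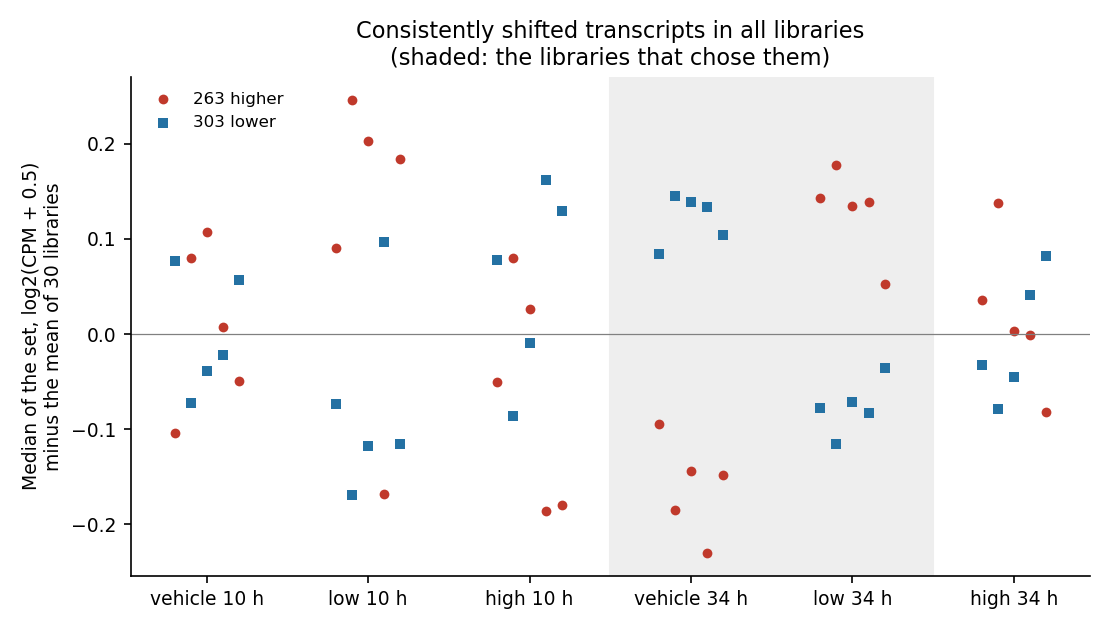
Median of the 263 transcripts higher (red circles) and the 303 lower (blue squares) in every low dose library at 34 h, as log2(CPM + 0.5) minus the mean of the 30 libraries, in each library of the 6 groups; the shaded groups chose the transcripts. In 4 of the 5 low dose libraries at 10 h the red median is above the blue one by 0.164 to 0.416, and in the other it is below by 0.264.

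Among the 6 groups of the series, the vehicle at 34 h was often the one at the edge. Of the 263 higher transcripts, the vehicle at 34 h had the lowest mean of the 6 groups in 170 (64.6%) and the low dose at 34 h the highest in 130 (49.4%). Of the 303 lower ones, the vehicle at 34 h was the highest group in 204 (67.3%) and the low dose the lowest in 118 (38.9%). Over all tested transcripts these shares were 16.5, 12.5, 15.1 and 13.5%, but the choice of the sets favours both extremes. Among all tested transcripts with a mean on the same side at 34 h they were 33.4, 25.1, 29.2 and 26%. Set beside the range of the vehicle at 10 h, the vehicle libraries at 34 h were fully apart for 28 of the higher (10.6%) and 37 of the lower transcripts (12.2%), and the low dose libraries at 34 h for 16 (6.08%) and 15 (4.95%). Over all tested transcripts these shares were 1.61% and 1.13%, and the choice of the sets favours separation here too. For 219 of the 263 and 251 of the 303, neither group at 34 h was apart from the saline kidneys of 10 h.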

How the data were processed

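RNA of 30 rat kidneys was sequenced as poly-A libraries, and 10 libraries are compared here. Per the file headers, each deposited file lists 65166 targets with their estimated counts, TPM values and lengths (full and effective): 40071 transcripts and 25095 genomic intervals. Per the submitters' processing notes, the authors made these counts with kallisto 0.42.2, and the build is Rnor_6.0. kallisto divides reads among matching targets, so counts need not be whole. The deposited TPM values are counts per effective length scaled to a common sum and set the abundance classes. Annotation release, options and choice of intervals: not given in the sources used here.

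Counts were rounded, intervals were left out, and transcripts were kept by filterByExpr over the 30 libraries. edgeR 4.0.16 fitted the 2 groups alone (TMM, robust quasi-likelihood test, R 4.3.3), with Benjamini-Hochberg adjustment over all 21112 transcripts. The SE is the log2 fold change divided by the square root of F. Log2 CPM used a pseudocount of 0.5. Levels at 10 h and in the high dose were scaled over all 30 libraries. DESeq2 1.42.0 and limma 3.58.1 (voom with quality weights, and log2(TPM + 1)) were alternatives, as were other scalings, filters, whole counts only (within 1e-06), vehicle libraries before or after the low dose run, and each library left out in turn. Trends of each library with length or abundance, the 10 h values without libraries far from their groups, and the comparison of both 34 h groups with the vehicle at 10 h, were added later. Named were the called transcript of largest change in each direction with at least 5 CPM, and in each direction the transcript of lowest unadjusted p among those of at least 100 CPM whose groups do not overlap. At most 2 IDs per direction are given because no gene names were at hand. The groups, lists and rules were chosen with earlier results of these data known. P values measure the spread between single kidneys, and the reads carry no molecular identifiers, so depth gives counting error only. The edgeR fit and the removal of the length trend were run on simulated counts. These had a planted length trend and planted changes of at least 2-fold in transcripts of at least 5 CPM. The simulation covered neither smaller changes of single transcripts, nor a batch, nor DESeq2.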

Additional observations from a re-analysis of the deposited data

Results flagged for a closer look

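In 2 of 50 sets of 5 library values examined, 1 library lay far from the other 4 for the size of the group's range, where chance alone does so in about 1 in 20. Both were low dose replicate 5 at 34 h. For the first, counts were rounded and then thinned to 20162780 per library, so depth is not the only difference from the unthinned measure. Low dose replicate 5 then had 24271 detected transcripts, against 23903 to 23941 in the other low dose libraries and 23691 to 24035 in the vehicle. It also had 12.3 CPM of the transcript that rose by 1.40 on the log2 scale, against 6.52 to 7.99 CPM in the other 4, which all stood above the vehicle too.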

How the results depend on the processing

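No paired analysis was possible because the labels carry no replicate numbers. The 7 calls became 443 with DESeq2 (2 of the 7 among them), 4 with limma voom, 4 with a filter of 5 CPM in 5 libraries, 4 with the length trend removed, 4 with the abundance trend removed and 3 with both removed. They became 0 in a fit of all 30 libraries (1577 at an unadjusted p under 0.05), 0 with whole counts only (1396), 1 with the vehicle libraries numbered before the low dose run and 2 with those after it. Leaving out each library gave 1 to 4 calls. With DESeq2's size factors, limma on log2(TPM + 1) or no filter the count stayed within 1.5 times of 7. The change of effect from 10 to 34 h, 0 by edgeR, was 25 by DESeq2 and 0 to 2 with a library left out, 2 without low dose replicate 5 of 10 h.

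The 566 non-overlapping transcripts became 274 with whole counts only, for which fewer transcripts are tested. With a library left out they were 701 to 1510, since fewer libraries are easier to separate, and the number passed 1.5 times 566 without low dose replicate 3 (867) or 5 (1510) or vehicle replicate 1 (1287) or 5 (1136). The shift from 5 to 20 TPM changed sign with classes by mean CPM (-0.0014), whole counts only (-0.0018), the vehicle libraries numbered after the low dose run (-0.005) and a library left out (-0.0011 to 0.0043). From 1000 TPM on it changed sign with the length trend removed (0.0045); the cause was not tested. Classes by mean CPM moved the shifts under 1 and from 20 to 100, 100 to 1000 and 1000 on to 0.0201, -0.0218, -0.0246 and -0.0142. The vehicle libraries after the run alone gave 0.0203 under 1 TPM and 0.0118 from 1 to 5 TPM. With a library left out, the shifts were 0.0302 to 0.0485 under 1 TPM, 0.0263 to 0.0468 from 1 to 5 TPM, -0.0478 to -0.032 from 20 to 100 TPM, -0.094 to -0.06 from 100 to 1000 TPM and -0.0915 to -0.0479 from 1000 TPM on. In the same fits the differences in detected transcripts (-37.5 to 273.5), in the share of the top 10 (-0.5873 to 0.08084) and top 100 (-0.5786 to 0.2286) and in the share of intervals (-0.2772 to 0.1815) changed sign in at least 1. Under 1 TPM, low counts limit which shifts can be seen.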
